A study of Triticum aestivum with 12 samples.

Results

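TraesCS4A02G498200 and TraesCS4A02G496400 are 2 of the 83486 wheat genes in the deposited table, and both are described in the deposited annotation as terpene cyclase/mutase family members near the end of chromosome 4A. They were chosen on measured values of these same libraries, their high level in control roots and low level in salt-treated roots, so their own root values are given as a description without a test. The libraries came from roots and shoots of the Saudi wheat cultivar Najran, grown for 4 weeks from germination with 200 mM or 0 mM NaCl. Salt-treated roots, control roots, salt-treated shoots and control shoots each had 3 libraries, 12 in all, and each RNA sample pooled 2 plants. All 4 groups were the same cultivar with no other agent, and control plants received water without added salt.

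Terpene cyclases/mutases of this family, also called oxidosqualene cyclases, fold the linear molecule 2,3-oxidosqualene into ring systems. Some members, such as cycloartenol synthase, open the route to membrane sterols that every plant cell needs, and others, such as beta-amyrin synthase, make the skeletons of specialised triterpenes. In oat, a related cereal, a root beta-amyrin synthase starts the synthesis of the antifungal avenacins, and its gene lies in a cluster with later genes of that route. The description of the wheat genes names the family and not the product, so their products are not known from these data. The distal end of the long arm of 4A is known to descend from chromosome 7B by an ancient translocation, with counterparts near the ends of the short arms of 7A and 7D.

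Both genes lie on the minus strand of 4A in the IWGSC wheat assembly. TraesCS4A02G498200 spans 743829596 to 743846920, and TraesCS4A02G496400 spans 742820864 to 742850059, with starts 1008.732 kb apart. The last 4A gene with a position in the deposited tables ends at 744518269, which is 671.349 kb beyond the end of TraesCS4A02G498200 and 1668.21 kb beyond that of TraesCS4A02G496400. Exon, intron and promoter positions of the genes were not used here.

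The values are normalized counts, that is, estimated read counts per gene that the authors corrected for the depth of each library. They are not divided by gene length, so levels are compared between groups of libraries and not between genes. The normalized totals were 13890189–14183797 for salt-treated roots, 14878135–15863307 for control roots, 18565098–19748450 for salt-treated shoots and 20513240–25371113 for control shoots. Tissue labels were checked with 88 genes described as chlorophyll a-b binding or Rubisco small subunit proteins, which summed to 403–458 for salt-treated roots, 602–2199 for control roots, 804454–965234 for salt-treated shoots and 911246–1565232 for control shoots. All 82 of these genes that were tested were called lower in control roots than in control shoots. Between salt-treated and control roots 21 of them were tested and limma called 0, with a median log2 fold change of -1.28. What lies behind this difference in the root libraries was not tested.

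TraesCS4A02G498200 was abundant in every control root library and close to nothing elsewhere. It had 0, 0 and 3.45 normalized counts in salt-treated roots, against 320, 577 and 484 in control roots. It was listed at 0 in all salt-treated shoots and at 0, 0.991 and 0 in control shoots. The root groups were far apart, with the lowest control library 92.8 times the highest salt-treated library. The mean was 1.15 ± 1.99 in salt-treated roots and 460 ± 130 in control roots (SD, n = 3 each), a log2 difference of -8.09 on the log2(normalized count + 1) scale. The control root mean was 133-fold the highest salt-treated root library. Against the shoots, where no library exceeded 3 normalized counts, control roots were at least 153-fold higher, with 3 taken as the floor.

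TraesCS4A02G496400 showed the same distribution over the groups. It had 0, 0.928 and 0.873 normalized counts in salt-treated roots, against 312, 444 and 187 in control roots, and it was listed at 0 in all 6 shoot libraries. No salt-treated root library reached the floor of 3 normalized counts. The mean was 0.600 ± 0.521 in salt-treated roots and 314 ± 129 in control roots (SD, n = 3 each), a log2 difference of -7.60. Control roots were at least 105-fold higher than salt-treated roots, and at least 105-fold higher than either shoot group, against that floor. In bulk tissue, fewer cells that express a gene and less RNA per cell cannot be told apart.

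**Figure D1:**
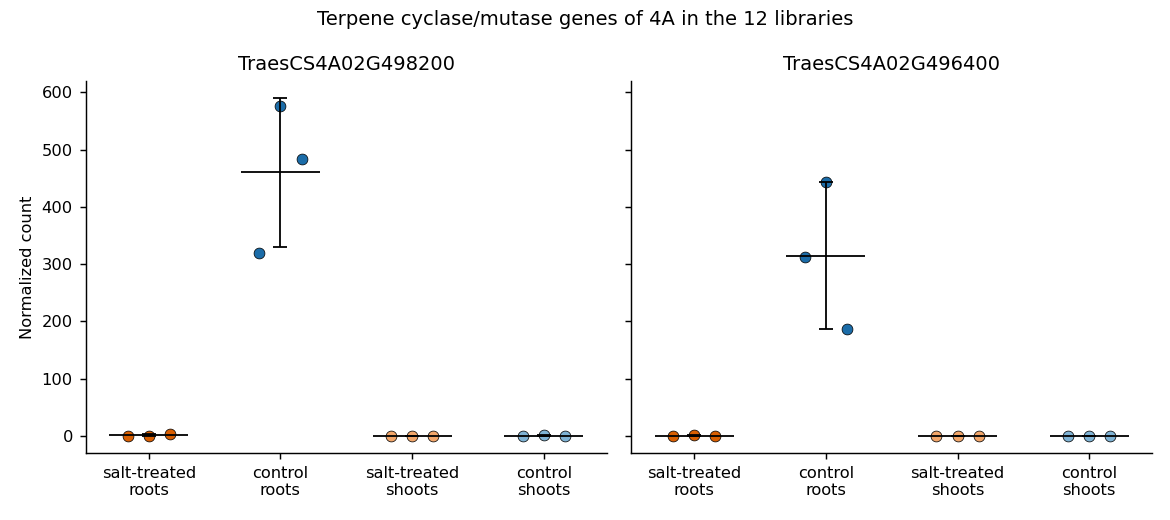
Normalized counts (linear axis) of the 2 terpene cyclase/mutase genes of 4A in each library of the 4 groups, where points are libraries, horizontal lines are means and error bars are SDs (n = 3). Control roots hold 320 to 577 normalized counts of TraesCS4A02G498200 and 187 to 444 of TraesCS4A02G496400, while no other library exceeds 3.45.

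Control roots thus held 99.7% of the sum of TraesCS4A02G498200 over the 12 libraries and 99.8% of that of TraesCS4A02G496400. Such a restriction was uncommon among the 51487 genes with at least 10 normalized counts in at least 3 libraries. Of these, 197 genes (0.383%) had at least 90% of their sum in control roots, 76 genes (0.148%) at least 95% and 19 genes (0.0369%) at least 99%. The share of TraesCS4A02G498200 was reached or passed by 14 other genes, and that of TraesCS4A02G496400 by 12. Both genes were chosen on these same root values, so their high place follows at least in part from the choice and is a description.

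Within the control roots the genes varied differently. The coefficient of variation was 28.2% for TraesCS4A02G498200 and 40.9% for TraesCS4A02G496400. The control root sum of TraesCS4A02G498200 was split 23.2%, 41.8% and 35.0% over replicates 1, 2 and 3, and that of TraesCS4A02G496400 was split 33.1%, 47.1% and 19.8%. Both were highest in replicate 2, while the lowest library was replicate 1 for TraesCS4A02G498200 and replicate 3 for TraesCS4A02G496400.

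A list for the endodermis, the root cell layer that carries the Casparian strip, had lower sums in salt-treated roots. The 45 genes described as CASP-like, a family that includes the Casparian strip membrane proteins, summed to 4716–5423 normalized counts for salt-treated roots and 7537–12091 for control roots. Of 38 tested in roots, 3 were called and all 3 were lower with salt, and the median log2 fold change was -0.64. Among all tested genes with a position, 8.21% were called in roots and 5.45% were called lower. Their part in the values of the cyclase genes was not tested. The CASP-like sum was 7480–8295 for salt-treated shoots and 9861–11381 for control shoots. Between control roots and control shoots 42 were tested, with 24 called higher and 15 called lower in roots. Among all tested genes with a position, 34.8% were called higher and 41.6% lower. The list is thus not specific to roots.

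Genes around the pair were compared next, to see how far along the chromosome the pattern reached. A gene was called where limma on log2(normalized count + 1) gave a Benjamini-Hochberg adjusted p under 0.01 and a log2 fold change of 1 or more in either direction. Of all 44737 genes tested in roots, 3.47% were called. Positions come from the authors' comparison tables, which list only genes that passed the authors' own thresholds, so genes with a position were already selected for a difference. Among the 18772 genes with a position that were tested in roots, 8.21% were called, 2.76% higher and 5.45% lower with salt.

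Within 1 Mb of either cyclase gene lay 16 other genes with a position. In roots 9 were tested and 3 were called, 1 higher and 2 lower with salt, and the median log2 fold change was -0.45, against -0.02 over all genes tested. In shoots 7 were tested and limma called 0, with 2 at an unadjusted p under 0.05 and a median of 0.48. In shoots 5.28% of all genes tested and 12% of those with a position were called, with 1026 higher and 1333 lower over all genes, against 1389 and 893 at equal library totals. The list is short, and 3 of 9 rests on few genes.

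The 2 neighbours that fell were the genes next to each cyclase gene. TraesCS4A02G498300, which carries no description, lies on the plus strand from 743866825 to 743868868, and 19.905 kb separate it from TraesCS4A02G498200. Its strand is opposite, so the pair is arranged head to head. It had 0, 0.928 and 0 normalized counts in salt-treated roots, against 79.9, 131 and 104 in control roots, and it was listed at 0 in all 6 shoot libraries. The log2 fold change in roots was -6.38 (SE 0.44, limma, Benjamini-Hochberg adjusted p = 0.00115). It was not tested without any 1 control root library, since it then missed the filter on low values. The gene passed that filter only through the control roots, so only a fall could be called.

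TraesCS4A02G496500, also without a description, lies on the plus strand from 742890683 to 742892781, with 40.624 kb between it and TraesCS4A02G496400, again head to head. It had 4.59, 3.71 and 13.97 normalized counts in salt-treated roots, against 271, 404 and 167 in control roots, and it was listed at 0 in all 6 shoot libraries. Some signal remained in each salt-treated root library. The log2 fold change was -5.17 (SE 0.51, limma, Benjamini-Hochberg adjusted p = 0.00234), and the adjusted p was 0.0137, 0.0224 and 0.0141 without control root replicates 1, 2 and 3. Without these libraries limma called 144, 0 and 6 genes in all, against 1553 with every library, so the loss is not particular to this gene. With its salt-treated root values alone, TraesCS4A02G496500 would have missed the filter on low values, so only a fall could be called.

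**Figure D2:**
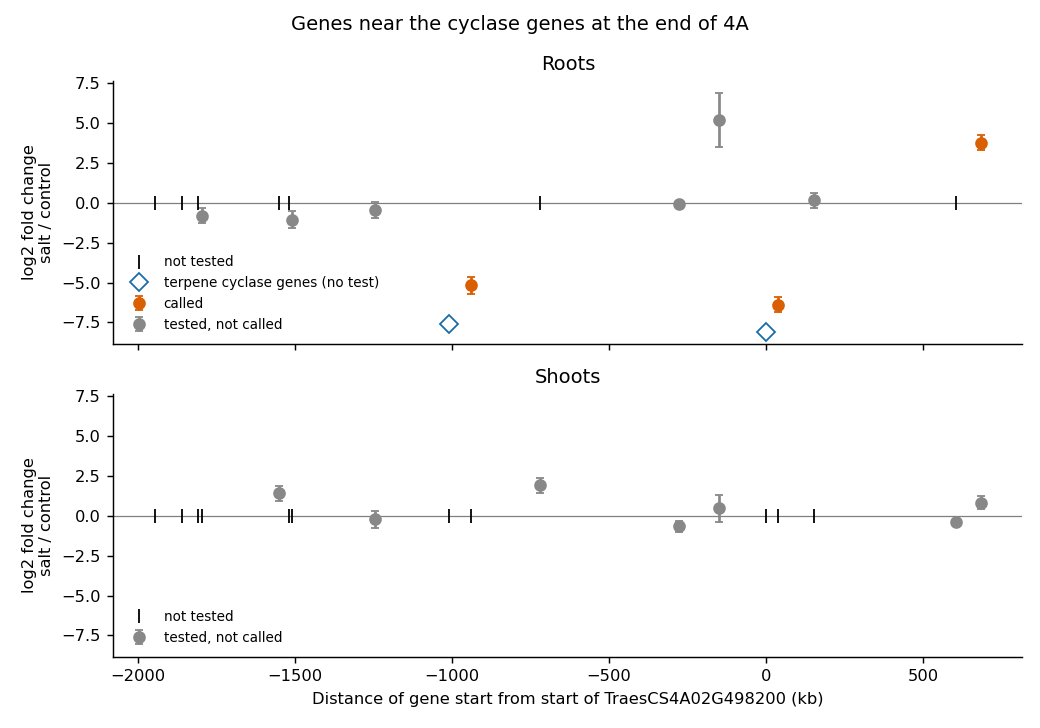
Log2 fold change of salt over control for genes within 1 Mb of the cyclase genes, by distance of the gene start from the start of TraesCS4A02G498200 in kb, in roots (top) and shoots (bottom). Filled points are tested genes with their standard error, open diamonds are the cyclase genes without a test (-8.09 and -7.60) and ticks at 0 mark genes not tested. In roots the called gene beside each diamond is at -6.38 and -5.17.

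The neighbours shared the split over control root replicates of the cyclase gene beside them. TraesCS4A02G498300 was split 25.4%, 41.6% and 33.0% over replicates 1, 2 and 3, close to TraesCS4A02G498200. TraesCS4A02G496500 was split 32.2%, 47.9% and 19.8%, close to TraesCS4A02G496400. With 3 libraries these are descriptions of single values.

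**Figure D3:**
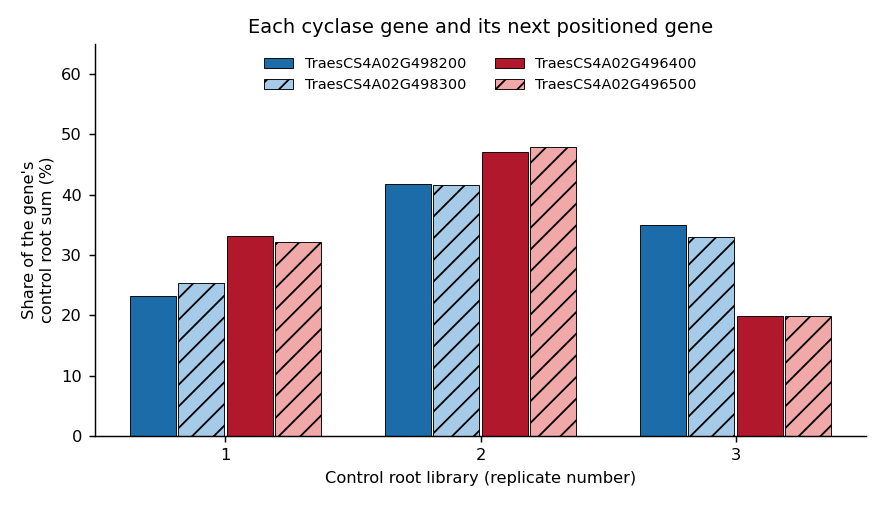
Share of each gene's control root sum (percent) found in control root replicates 1, 2 and 3, for each cyclase gene (plain bars) and the neighbour beside it (hatched bars). In replicate 3, TraesCS4A02G498200 and TraesCS4A02G498300 hold 35.0% and 33.0%, and TraesCS4A02G496400 and TraesCS4A02G496500 hold 19.8% each.

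Likeness was also ranked among all genes, over the 12 libraries. Nearly the whole sum of these genes is in control roots, so this ranking rests on the same 3 control root shares. Each gene was divided by its sum over the libraries, and the smaller share of each library was summed to a profile overlap in percent, with 51486 other genes compared. The profile most like TraesCS4A02G496400 was that of TraesCS4A02G496500, with an overlap of 97.6%. For TraesCS4A02G498200, TraesCS4A02G498300 was in place 2 with 97.5%, after TraesCS5A02G039000 with 97.6%. The overlap between the cyclase genes themselves was lower, 84.6%, which put TraesCS4A02G496400 in place 196 for TraesCS4A02G498200 and TraesCS4A02G498200 in place 86 for TraesCS4A02G496400. The median overlap was 24.7% and 24.5% over all genes compared. An overlap of at least 90% was reached by 52 genes for TraesCS4A02G498200 and by 15 for TraesCS4A02G496400.

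Of the remaining like genes, TraesCS5A02G039000 on 5A is described as a bidirectional sugar transporter of the SWEET type, a family that moves sugars across membranes. It had 0.765, 0 and 0 normalized counts in salt-treated roots, against 96.6, 196 and 166 in control roots, and it was listed at 0 in all shoots. TraesCS2B02G566800, described as a serine/threonine protein kinase, had 0.766, 0 and 0 in salt-treated roots, against 70.6, 152 and 140 in control roots. TraesCS3B02G478000 and TraesCS2B02G002700, without a description, overlapped by 96.1% and 95.7%, and the kinase by 95.7%.

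Next after TraesCS4A02G496500, the profile of TraesCS4A02G496400 was most like that of TraesCS5B02G382400, described as a lipoxygenase, an enzyme class that adds oxygen to fatty acids. Its overlap was 95.8%, with 3.06, 14.8 and 94.2 normalized counts in salt-treated roots, against 2829, 3881 and 1993 in control roots. The other genes were TraesCS6B02G420500 with 94.4%, TraesCS6A02G311300 with 94.3% and TraesCS1A02G407900, described as a patatin, a family of lipid acyl hydrolases, with 93.4%. These genes were picked for their profiles, so their own change with salt is a description here.

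Of the other named neighbours with a position, none had this pattern. TraesCS4A02G497800, between the cyclase genes, had 376, 363 and 366 normalized counts in salt-treated roots, against 398, 487 and 303 in control roots, and its log2 fold change was -0.08 (SE 0.20, limma, Benjamini-Hochberg adjusted p = 0.827). TraesCS4A02G495900, the nearest gene with a position below TraesCS4A02G496400, was not called (log2 fold change -0.45, SE 0.52, limma, Benjamini-Hochberg adjusted p = 0.601). Also between the cyclase genes, the thaumatin-like gene TraesCS4A02G498000, the nearest below TraesCS4A02G498200 and of a family of pathogenesis-related proteins, had 55.3, 125 and 2214 in salt-treated roots, against 48.0, 5.46 and 0 in control roots. Its log2 fold change of 5.20 (SE 1.69, limma, Benjamini-Hochberg adjusted p = 0.0815) was not called, with the 3 salt-treated libraries far apart.

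TraesCS4A02G499800, without a description, was the neighbour that rose. It had 25.3, 39.8 and 27.1 normalized counts in salt-treated roots, against 2.52, 0.778 and 0.931 in control roots, a log2 fold change of 3.76 (SE 0.48, limma, Benjamini-Hochberg adjusted p = 0.00470). The adjusted p (limma) was 0.0129, 0.0311 and 0.0220 without control root replicates 1, 2 and 3, where nearly all root calls over all genes were lost too. The gene passed the filter on low values only through the salt-treated roots, so only a rise could be called.

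The table also holds 4A genes without a position, whose identifier numbers follow the start positions in 1479 of 1481 adjacent pairs of positioned 4A genes. Of 13 genes numbered after TraesCS4A02G498200, 10 were tested in roots and 2 were called, TraesCS4A02G498300 lower and TraesCS4A02G499800 higher. Both have a position and were already counted among the neighbours above. In roots 3.47% of all genes tested and 8.21% of those with a position were called. TraesCS4A02G499100, singled out after its values were seen, was listed at 0 in all salt-treated roots, against 10.1, 28.8 and 10.2 normalized counts in control roots, and at 0 in all shoots. Its signal was thus in control roots alone, where nearly all of that of the cyclase genes also lay. Its log2 fold change was -3.95 (SE 0.64, limma, Benjamini-Hochberg adjusted p = 0.0101), which narrowly missed the threshold of 0.01. It was called with no filter on low values, and the adjusted p (limma) lay between 0.00531 and 0.0304 over its alternatives. The gene passed the filter only through the control roots, so only a fall could be called there.

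TraesCS7A02G001700 gave the closest parallel among the 7 other genes described as terpene cyclase/mutase. It spans 1280349 to 1295461 on the minus strand near the start of 7A. It had 0, 0 and 0.873 normalized counts in salt-treated roots, against 21.8, 40.4 and 11.2 in control roots. In shoots it had 0, 1.23 and 0 with salt and 0, 3.80 and 4.25 in controls. The log2 fold change in roots was -4.20 (SE 0.64, limma, Benjamini-Hochberg adjusted p = 0.00853). It was also higher in control roots than in control shoots, by a log2 fold change of 2.95 (SE 0.71, limma, Benjamini-Hochberg adjusted p = 0.00822). The tissue call was lost with a pseudocount of 0.1, with no filter on low values and without control shoot replicate 1 or 2 (adjusted p = 0.0486, 0.0115, 0.0153 and 0.0126). The root call was lost with a pseudocount of 0.1 or 10 and without salt-treated root replicate 1 or 2 (adjusted p = 0.0250, 0.0149, 0.0212 and 0.0159), and the gene was not tested without any 1 control root library. It passed the filter only through the control roots, so in both comparisons only a higher level in control roots could be called.

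TraesCS7A02G001500, singled out after its values were seen, lies beside TraesCS7A02G001700 and is the 1 gene with a position within 100 kb of it. It is described as a sulfotransferase, an enzyme class that adds sulfate groups to small molecules or proteins, and spans 1273203 to 1274422 on the plus strand. It was listed at 0 in all salt-treated roots, against 16.8, 20.3 and 15.8 normalized counts in control roots, and at 0 in all shoots except 2.12 in control shoot replicate 3. The log2 fold change in roots was -4.21 (SE 0.52, limma, Benjamini-Hochberg adjusted p = 0.00439). The call was lost without salt-treated root replicate 1 and with a pseudocount of 0.1 (adjusted p = 0.0115 and 0.0210), and the gene was not tested without any 1 control root library. It passed the filter only through the control roots, so only a fall could be called.

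The remaining cyclase genes had higher mean values in shoots than in roots. Of the 7 other genes, 5 were tested between control roots and control shoots, and all 5 were called, 1 higher and 4 lower in roots. The 4 lower genes passed the filter on low values only through the control shoots, so only a lower level in roots could be called for them. Genes called in this comparison were frequent, at 36.3% of all genes tested and 76.4% of those with a position, of which 34.8% were higher and 41.6% lower in roots, so a call of this kind is common. Over all genes, 7926 were called higher and 9335 lower in roots, against 12450 and 7408 when libraries were scaled to equal totals. TraesCS6A02G111400 had 9.23, 12.4 and 4.67 normalized counts in control roots, against 1311, 808 and 771 in control shoots (log2 fold change -6.67, SE 0.36, limma, Benjamini-Hochberg adjusted p = 1.39e-06). TraesCS4A02G000600, at the other end of 4A, had 0.839, 3.88 and 0 in control roots, against 63.4, 144 and 161 in control shoots (log2 fold change -5.79). TraesCS7B02G131400 and TraesCS7A02G232900 were lower in control roots by log2 fold changes of -4.74 and -2.86. With 1 control shoot library left out, 2 or 3 genes were called in place of 5.

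**Figure D4:**
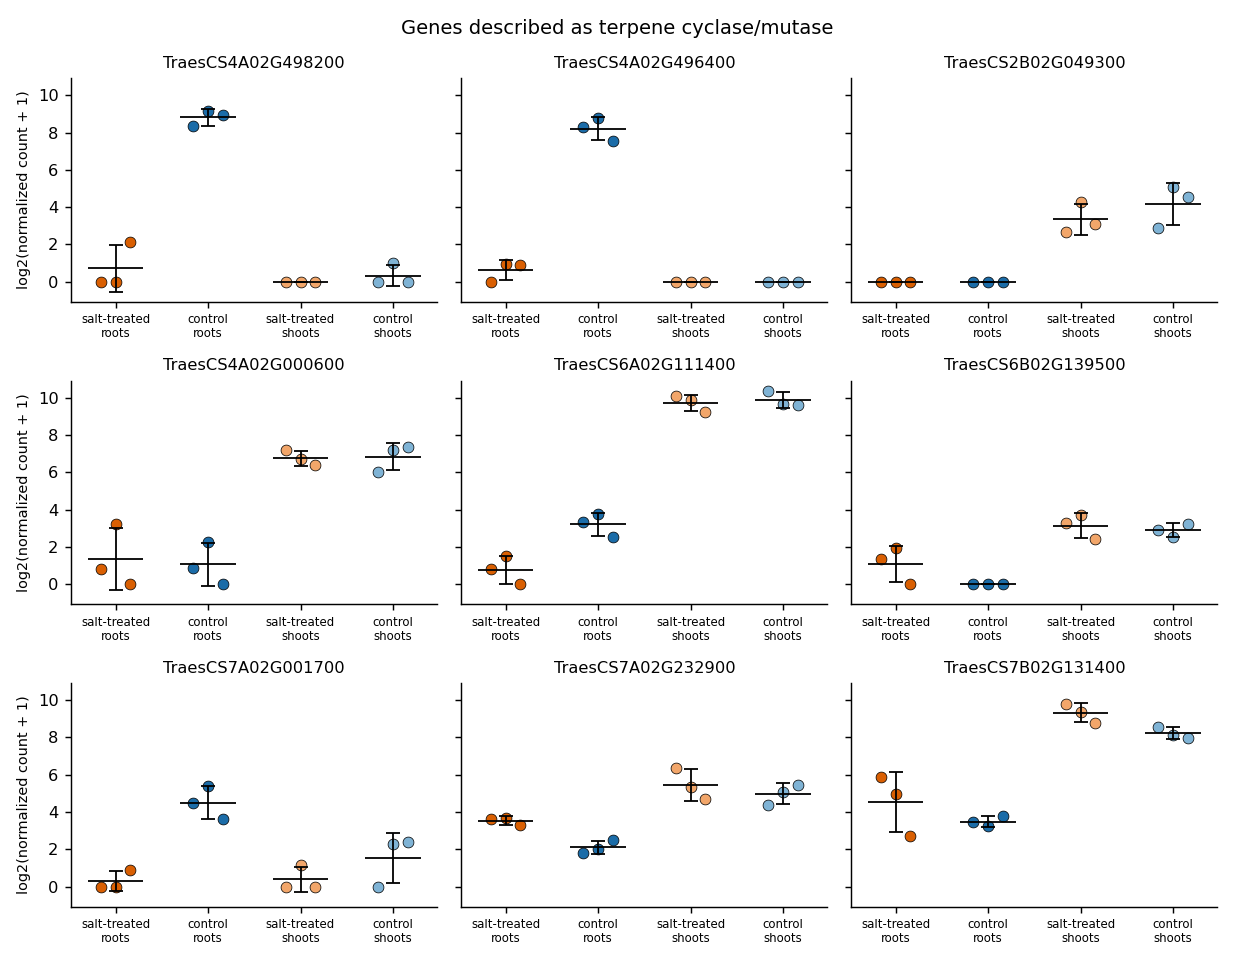
Log2(normalized count + 1) of the 9 genes described as terpene cyclase/mutase in each library of the 4 groups, where points are libraries, horizontal lines are means and error bars are SDs (n = 3). TraesCS4A02G498200, TraesCS4A02G496400 and TraesCS7A02G001700 stand highest in control roots, while TraesCS6A02G111400, TraesCS4A02G000600 and TraesCS7B02G131400 stand highest in shoots.

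Salt gave 1 call among the other cyclase genes, in roots. There, 2 of the 7 other cyclase genes were tested and 1, TraesCS7A02G001700, was called lower. In shoots, 5 were tested and limma called 0, with 1 at an unadjusted p under 0.05. That gene, TraesCS7B02G131400, had 887, 670 and 444 normalized counts in salt-treated shoots, against 379, 283 and 251 in control shoots, a log2 fold change of 1.09 (SE 0.27, limma, Benjamini-Hochberg adjusted p = 0.0284). The value missed the threshold.

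Whether the salt response differed between roots and shoots was tested with an interaction term over the 12 libraries, taken as independent. Of 51487 genes, 2.13% had an adjusted p under 0.01. Among the other cyclase genes, 6 were tested and limma called 0, with 2 at an unadjusted p under 0.05. For TraesCS7A02G001700 the root response minus the shoot response was -3.03 on the log2 scale (SE 0.98, limma, Benjamini-Hochberg adjusted p = 0.0978). For TraesCS4A02G498300 and TraesCS4A02G496500, listed at 0 in all shoots, a difference between the tissues cannot be tested.

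The cyclases draw on 2,3-oxidosqualene, which the mevalonate pathway and later isoprenoid steps supply. Sterol enzymes act later, on the route that cycloartenol synthase opens. By words for isoprenoid and sterol steps, the descriptions gave 14 genes. These were 2 HMG-CoA synthases, 3 HMG-CoA reductases, 2 diphosphomevalonate decarboxylases, 3 prenyl diphosphate synthases and 4 sterol reductases. Of the prenyl diphosphate synthases, TraesCS6A02G252700 and TraesCS6B02G272800 are described as chloroplastic small subunits of geranylgeranyl pyrophosphate synthase. Their descriptions do not place them on the route to 2,3-oxidosqualene, and they were kept in all counts. No gene was described as squalene synthase or squalene epoxidase, the steps just before the cyclases. In roots, all 14 were tested and limma called 0, with 3 at an unadjusted p under 0.05 and a median log2 fold change of -0.25. The change was negative for 11 genes and positive for 3. Some negative values lay near 0, such as -0.03 for TraesCS6A02G252700 and -0.04 for TraesCS3B02G286300, and the median over all genes tested was -0.02. Genes of the same description on different chromosomes were counted singly, so the split is a description.

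The 2 largest negative values belonged to HMG-CoA reductase, the rate-limiting enzyme of the mevalonate pathway. TraesCS7B02G142500 had 177, 231 and 406 normalized counts in salt-treated roots, against 728, 648 and 572 in control roots (log2 fold change -1.34, SE 0.30, limma, Benjamini-Hochberg adjusted p = 0.0292). TraesCS7A02G248800 had 271, 256 and 431 in salt-treated roots, against 777, 569 and 509 in control roots (log2 fold change -0.97, SE 0.26, limma, Benjamini-Hochberg adjusted p = 0.0482). Neither gene passed the threshold. Without salt-treated root replicate 3, the adjusted p (limma) of TraesCS7B02G142500 was 0.00424. In that fit 2526 genes were called in all, against 1553 with every library. The paper reports an outlier among its salt-treated root samples and does not name the replicate in its text.

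In shoots, where both 4A cyclase genes were near 0, 13 pathway genes were tested and 1 was called higher with salt, where 5.23% of genes with a position were called higher. TraesCS4B02G353100, an HMG-CoA synthase at an early step of the mevalonate pathway, had 538, 497 and 434 normalized counts in salt-treated shoots, against 207, 239 and 273 in control shoots, a log2 fold change of 1.03 (SE 0.16, limma, Benjamini-Hochberg adjusted p = 0.00531). The adjusted p lay between 0.0114 and 0.0246 when any 1 shoot library was left out. Without control shoot replicate 1 the 1 pathway gene called was instead TraesCS7A02G248800, an HMG-CoA reductase, which was lower with salt (log2 fold change -1.01, limma, Benjamini-Hochberg adjusted p = 0.00741). The median over the 13 genes was 0.22, with 10 positive and 3 negative, and 6 had an unadjusted p under 0.05.

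**Figure D5:**
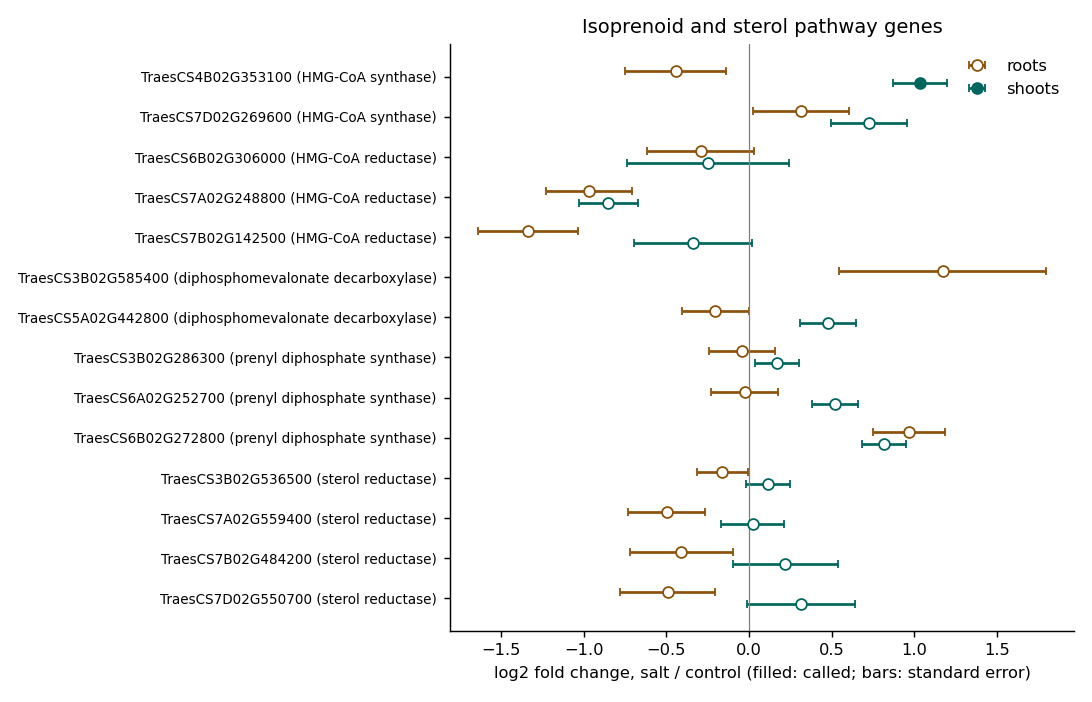
Log2 fold change of salt over control for the 14 isoprenoid and sterol pathway genes in roots and shoots, with standard errors as bars and filled points for called genes. In roots no gene is called and 11 of 14 values are negative, and in shoots TraesCS4B02G353100 is called at 1.03.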

How the data were processed

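RNA was sequenced in 12 libraries of Najran wheat with a poly(A), non-directional kit, so reads of overlapping genes on opposite strands cannot be told apart. Reads were checked with FastQC 11.8, trimmed with Trimmomatic 0.36 and quantified with Salmon 0.12.0, per the submitters' processing notes and the methods. Estimates were summed to genes with tximport and divided by normalization factors, which differ between genes of a library. The deposited table thus holds a signal, made by the authors, that is not whole reads, and the sequencing depth behind single values was not used. Of the authors' comparison tables only gene positions and descriptions were used, while their fold changes and p-values were left out. Near-identical copies on the A, B and D genomes can share reads, so their levels are uncertain.

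Genes with at least 10 normalized counts in at least 3 of the 6 libraries compared were fitted with limma 3.58.1 (R 4.3.3) with a variance trend on log2(normalized count + 1), and the Benjamini-Hochberg adjustment ran over each whole comparison. The interaction used all 12 libraries. The paper states that roots and shoots came from the same plants, but not whether same-numbered libraries did. Fits without the replicate block took root and shoot libraries as independent. Python 3.11.15 with matplotlib 3.10.9 made the plots. The procedure was tested on simulated data. The precision rests on 3 libraries per group. The sources do not say whether replicates grew in separate pots, so p-values measure the spread between these pools of plants.

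The genes and lists were chosen with earlier results of these data known. Named were both 4A cyclase genes, called family, pathway and neighbouring genes, the nearest gene with a position on each side, and the 5 genes with the highest profile overlap. Alternatives were pseudocounts of 0.1 and 10, no filter, equal library totals, an adjusted p of 0.05, a replicate block, other windows and leaving out each library. Deviations of same-numbered control root and control shoot libraries were positively correlated (0.125, 0.213 and 0.326). The block left all 5 cyclase calls of that comparison in place.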

Additional observations from a re-analysis of the deposited data

How the results depend on the processing

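In all, 20 alternatives were run over the different results. Each named gene that was checked singly had 8 or 11 refits, and the sign of the fold change reversed in 0 of these genes. Not every named gene was checked in this way, and TraesCS4A02G497800, with a value near 0, was not. The difference of salt response between roots and shoots kept 0 called cyclase genes in all alternatives run. The log2 difference in roots was -10.41 for TraesCS4A02G498200 and -9.32 for TraesCS4A02G496400 with a pseudocount of 0.1, and -5.37 and -4.86 with a pseudocount of 10, and leaving out 1 library gave -8.81 to -7.73 and -7.93 to -7.29. The called other cyclase genes in roots numbered 0 with a pseudocount of 0.1, 0 with a pseudocount of 10 and 0 with the replicate block, and 0 to 1 without 1 library. In shoots, 1 was called at an adjusted p of 0.05, 1 with the block and 1 at equal totals. Between control roots and control shoots, 2 to 4 were called without 1 library, and the 1 call higher in roots was lost with a pseudocount of 0.1 (4 called, all lower), with no filter (6 called, all lower) and without every single library but control shoot replicate 3. Pathway genes called in roots were 1 at an adjusted p of 0.05 and 0 to 1 without 1 library, and in shoots 0 with the block, 2 at equal totals and 0 to 1 without 1 library, where the 1 call without control shoot replicate 1 was lower with salt, a turn of direction that came from a different gene. Neighbours called in roots were 1 with the block, 1 among identifiers numbered between the cyclase genes and 0 to 2 without 1 library, and in shoots 1 at an adjusted p of 0.05. With the block, TraesCS4A02G498300 kept its root call (limma, adjusted p = 0.00832), while TraesCS4A02G496500 (0.0134), TraesCS4A02G499800 (0.0192), TraesCS7A02G001700 (0.0279) and TraesCS7A02G001500 (0.0194) did not. Correlations of the deviations of same-numbered salt-treated and control libraries were 0.0349, 0.13 and 0.00194 in roots and 0.0397, 0.0576 and -0.00208 in shoots. The value of 0.13 was no lower than the 0.125 between control roots and control shoots in replicate 1. The labels give the salt-treated and control libraries only a shared number. At equal totals the all-gene median of the log2 fold change was 0.12 in roots, 0.19 in shoots and 0.59 between control roots and shoots, against -0.02, -0.01 and 0.06. Over all genes, 1553 were called in roots, 285 with the block, 5354 at an adjusted p of 0.05 and 0 to 2526 without 1 library, and 2359 in shoots, 4572 at an adjusted p of 0.05 and 873 to 1592 without 1 library. Without control root replicate 2, limma called 0 genes in roots, with 9967 at an unadjusted p under 0.05, and it called 144 without replicate 1 and 6 without replicate 3. The cause was not tested.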
